A study of Mus musculus with 4 samples.

Results

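Actin, myosin and the proteins that bind them were followed as a group of 37 genes in mouse mesenchymal stem cells derived from bone marrow. The genes were listed by function, as contractile and actin-binding proteins of smooth muscle and myofibroblasts, but with earlier results of these data known. Each was read from the probe set that names only that gene and has the highest mean over the 4 arrays. All 37 were found among 22180 named genes, and 35 were among the 13308 genes (the upper 60%) with the highest mean level. Desmin (Des) and Synpo2 were not.

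The cells were Snail1-WT or Snail1-KO mesenchymal stem cells, the latter labelled as lacking Snail1, a zinc finger repressor encoded by Snai1. Cells of each genotype were untreated or had received TGF-b1 for 2 h, and each of these 4 groups had 1 Affymetrix array. How Snail1 was deleted, whether the cells are 1 clone and how many animals gave them were not given in the sources used here. With 1 array per group there is no replicate check, no test and no p-value. Snai1 itself differed by -1.60 (untreated) and -2.29 (with TGF-b1) between Snail1-KO and Snail1-WT cells, in the direction of the labels.

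In stromal cells, actin filaments are built from actin subunits, wrapped by tropomyosins, pulled by non-muscle or smooth muscle myosin and anchored at integrin adhesions. Free actin monomers hold the coactivators MRTF-A and MRTF-B in the cytoplasm. When monomers are used up, MRTF enters the nucleus and, with serum response factor (SRF), switches on many actin, adhesion and smooth muscle genes. TGF-b1 is the classic inducer of this contractile program in fibroblasts, which then carry smooth muscle actin in stress fibres and are called myofibroblasts.

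SRF binds a short element called the CArG box, here read as CC, then 6 bases that are each A or T, then GG. RefSeq promoter windows (GRCm38.p6) were present for 33 of the 37 genes, in 40 windows. The 250 bases before each transcription start were searched on both strands. A CArG box lay in 5 of these 40 windows, those of Srf, Vcl, Myl9, Myl6 and Cnn2, and in 1.47% of all 32851 windows. Allowing 1 core base of any kind, which includes the exact boxes, 10 of 40 windows held a match, against 8.59% of all windows. The windows shown are the 5 that hold an exact box, that of Acta2, the gene that marks myofibroblasts, those of Rflnb and Tns1, which differed most after TGF-b1, and that of Cnn1, which differed most between untreated genotypes. Capitals mark matches to the box, exact or with 1 free core base, and each run reads 5′ to 3′ towards the start.
Srf: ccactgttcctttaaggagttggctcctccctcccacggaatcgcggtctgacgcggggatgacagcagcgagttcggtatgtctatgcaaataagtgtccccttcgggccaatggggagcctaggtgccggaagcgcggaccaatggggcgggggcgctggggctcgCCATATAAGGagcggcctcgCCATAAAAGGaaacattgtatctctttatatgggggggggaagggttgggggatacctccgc
Vcl: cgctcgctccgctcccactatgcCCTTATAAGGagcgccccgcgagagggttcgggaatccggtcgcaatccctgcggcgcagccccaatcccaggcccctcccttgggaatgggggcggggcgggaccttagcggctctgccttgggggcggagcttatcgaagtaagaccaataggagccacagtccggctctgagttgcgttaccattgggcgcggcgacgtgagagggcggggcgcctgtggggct
Myl9: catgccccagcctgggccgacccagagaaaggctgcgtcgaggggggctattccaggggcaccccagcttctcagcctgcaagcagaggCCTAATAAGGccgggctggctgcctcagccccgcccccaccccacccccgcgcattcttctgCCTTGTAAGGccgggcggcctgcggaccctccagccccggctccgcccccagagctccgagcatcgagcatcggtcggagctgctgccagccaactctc
Myl6: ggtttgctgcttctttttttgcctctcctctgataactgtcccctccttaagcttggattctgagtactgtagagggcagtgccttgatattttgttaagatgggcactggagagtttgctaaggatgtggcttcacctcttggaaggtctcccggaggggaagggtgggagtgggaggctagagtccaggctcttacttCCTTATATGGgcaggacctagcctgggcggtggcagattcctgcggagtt
Cnn2: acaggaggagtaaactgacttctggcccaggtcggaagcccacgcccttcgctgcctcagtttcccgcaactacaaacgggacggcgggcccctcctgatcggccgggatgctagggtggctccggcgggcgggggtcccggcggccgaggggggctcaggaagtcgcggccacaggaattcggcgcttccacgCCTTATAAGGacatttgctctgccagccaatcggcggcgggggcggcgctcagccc
Acta2: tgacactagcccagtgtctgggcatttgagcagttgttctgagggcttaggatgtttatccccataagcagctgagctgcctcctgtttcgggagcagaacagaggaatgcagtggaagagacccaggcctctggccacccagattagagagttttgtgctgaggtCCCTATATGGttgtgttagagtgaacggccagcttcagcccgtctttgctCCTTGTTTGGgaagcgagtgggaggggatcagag
Rflnb: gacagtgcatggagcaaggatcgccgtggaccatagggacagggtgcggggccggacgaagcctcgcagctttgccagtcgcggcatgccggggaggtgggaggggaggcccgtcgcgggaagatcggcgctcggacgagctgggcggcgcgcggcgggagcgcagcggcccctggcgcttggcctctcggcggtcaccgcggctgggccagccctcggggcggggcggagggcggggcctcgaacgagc
Tns1: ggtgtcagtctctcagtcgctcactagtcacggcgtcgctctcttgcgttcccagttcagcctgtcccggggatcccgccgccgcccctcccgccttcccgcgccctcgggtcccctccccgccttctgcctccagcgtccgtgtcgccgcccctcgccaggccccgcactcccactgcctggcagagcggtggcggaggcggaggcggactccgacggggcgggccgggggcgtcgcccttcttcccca
Cnn1: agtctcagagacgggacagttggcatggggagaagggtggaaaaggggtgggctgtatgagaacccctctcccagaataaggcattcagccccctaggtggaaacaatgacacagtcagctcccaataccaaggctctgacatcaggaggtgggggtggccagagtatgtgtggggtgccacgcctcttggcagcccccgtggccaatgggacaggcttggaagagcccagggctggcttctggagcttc

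These windows are Srf at chr17:46556163-46556412 (minus strand), Vcl at chr14:20929148-20929397 (plus strand), Myl9 at chr2:156775214-156775463 (plus strand), Myl6 at chr10:128493010-128493259 (minus strand), Cnn2 at chr10:79988350-79988599 (plus strand), Acta2 at chr19:34255374-34255623 (minus strand), Rflnb at chr11:76027783-76028032 (minus strand), Tns1 at chr1:74124549-74124798 (minus strand) and Cnn1 at chr9:22099003-22099252 (plus strand). Srf, which encodes the factor itself, held exact boxes from 82 to 73 and from 62 to 53 bases before its start. Those of vinculin (Vcl) and of the smooth muscle light chain gene Myl9 began 227 and 161 bases before the start. The boxes of the light chain gene Myl6 (1 of its 2 windows) and of the calponin gene Cnn2 began 50 and 56 bases before it. The smooth muscle actin gene Acta2 held 2 matches with 1 free core base, beginning 84 and 34 bases before the start. No match lay in the windows of Rflnb, Tns1 and Cnn1. CAGGTG, an E-box that Snail1 can bind, lay on either strand in 3 of the 40 windows (Actn4, Myh10 and Synpo2) and in 17.2% of all windows. CAGAC, a motif that SMAD proteins can bind, lay in 13 of 40 and in 42.2% of all. None of these motifs overlapped another in the windows shown, other than exact boxes within the looser match. A match in letters is not a bound site, and a window without one says nothing about elements elsewhere.

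Values are the authors' RMA values on a log2 scale, so that 0.58 is 1.5-fold. As a yardstick of error, the noise SD of an array-to-array difference was estimated from how far the TGF-b1 responses of both genotypes disagreed among the 500 genes nearest in level. It lay between 0.08 and 0.23 for the 37 genes, with a median of 0.09. It contains true differences between the responses, and leaves out any spread that both arrays of a genotype, or both treated arrays, share. Array medians lay between 4.58 and 4.63. Levels of different genes are not compared, since probe sets differ in brightness.

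Of 16 measured mesenchymal stem cell markers, 14 were in the upper 60% of genes. Of 30 markers of other lineages 16 were, close to the share of all genes: 4 of 8 haematopoietic, 3 of 6 endothelial, 3 of 5 epithelial and 6 of 11 skeletal and cardiac muscle markers. The mean of each list differed little between arrays, within 8.58 to 8.71 for stem cell, 4.47 to 4.67 for haematopoietic, 4.26 to 4.32 for endothelial, 4.52 to 4.65 for epithelial and 4.64 to 4.81 for skeletal and cardiac muscle markers. Of 13 smooth muscle and pericyte markers, 6 of which are among the 37 genes, 12 were in the upper 60%, with array means between 6.03 and 6.25. Acta2 (11.77), Smtn (8.48), Cnn1 (7.37), Lmod1 (6.47) and Myh11 (5.41) had means above the lowest mean kept (4.51). Myocd (4.67) was near it and Des (4.44) was under it. Of the remaining markers, Notch3 (6.03) and Mcam (5.93) lay well above it. Cspg4 (4.94), Kcnj8 (4.76), Abcc9 (4.62) and Rgs5 (4.59) were closer to it. In such bulk RNA, more contractile cells and more contractile RNA per cell cannot be told apart.

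After 2 h of TGF-b1 most actin-binding and adhesion genes had slightly higher values in both genotypes, while the actins differed little. After TGF-b1, 29 of 37 genes (78.4%) had a higher value in Snail1-WT cells against 31 (83.8%) in Snail1-KO cells. Over all 13308 genes these shares were 45.2% and 46.2%. The median difference over the group was 0.14 in Snail1-WT against 0.23 in Snail1-KO cells, against -0.03 and -0.02 over all genes. Most members are bright, so they were also set beside the 3543 genes between 7.66 and 10.2 in mean level, the middle of the members' own range. There the medians were -0.02 and 0.00, and 46.0% and 51.0% of genes were higher. The plot of cumulative distributions shows the shift of the group in both genotypes. Since the members were chosen with earlier results of these data known, the shift describes this list only.

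**Figure D1:**
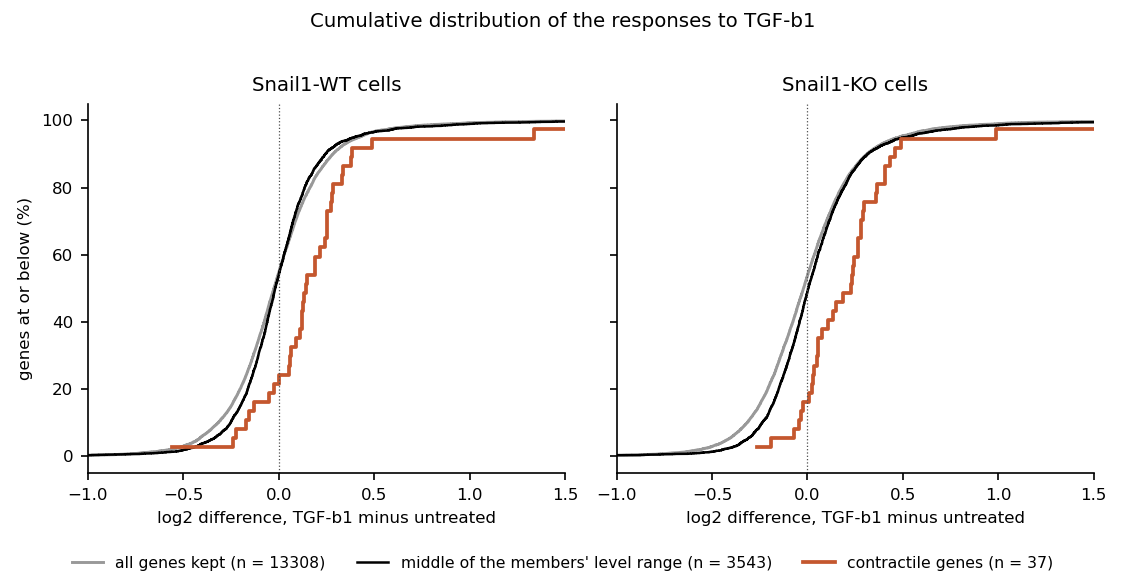
Cumulative share of genes (%) at or below each log2 difference between the TGF-b1 and the untreated array, in Snail1-WT (left) and Snail1-KO cells (right), cut at -1 and 1.5. The line of the 37 contractile genes lies to the right of all 13308 genes and of the 3543 genes in the middle of the members' level range, with medians of 0.14 and 0.23.

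The refilin gene Rflnb was the strongest responder. Its product binds filamins and bundles actin around the nucleus. Rflnb measured 6.10 in untreated and 7.91 in TGF-b1-treated Snail1-WT cells, against 6.57 and 8.67 without Snail1. Both treated arrays lay above both untreated arrays. The difference was 1.81 (3.51-fold) in Snail1-WT against 2.10 (4.30-fold) in Snail1-KO cells, the 12th largest increase of 13308 genes in either response, with a noise SD of 0.13.

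Tensin 1 (Tns1), which ties actin to integrin tails in fibrillar adhesions, was the other gene past 1.5-fold. It measured 7.09 and then 8.42 in Snail1-WT cells, against 7.40 and then 8.39 in Snail1-KO cells. The untreated arrays differed from each other, and the treated arrays met at nearly the same value. Its difference was 1.34 (2.53-fold) and 0.99 (1.98-fold), with a noise SD of 0.11, and ranked 41st and 138th among the increases. Rflnb and Tns1 were thus the 2 of 37 genes at least 1.5-fold higher in each response, and none was 1.5-fold lower. Over all genes, 2.48% were 1.5-fold higher and 1.89% lower in Snail1-WT cells, against 3.31% and 1.83% in Snail1-KO cells, so that 2 of 37, or 5.41%, lies near the background.

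The group differed from all genes by smaller differences, which describe a list chosen with earlier results of these data known. With a limit of 2 noise SDs, chosen after the values were seen, 15 genes were higher and 2 lower in Snail1-WT cells, beside 8.60% and 11.3% of all genes. In Snail1-KO cells 18 were higher and 2 lower, beside 11.6% and 10.5%. The responses of both genotypes share no array, and 15 of the 37 genes (40.5%) were higher by that limit in both, against 5.91% of all genes and 10.8% of genes in the middle level range. One gene, Myl12a, was lower in both. Bright genes have small noise SDs, so differences as small as that of caldesmon (Cald1, 1.14-fold in each genotype) passed this limit.

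**Figure D2:**
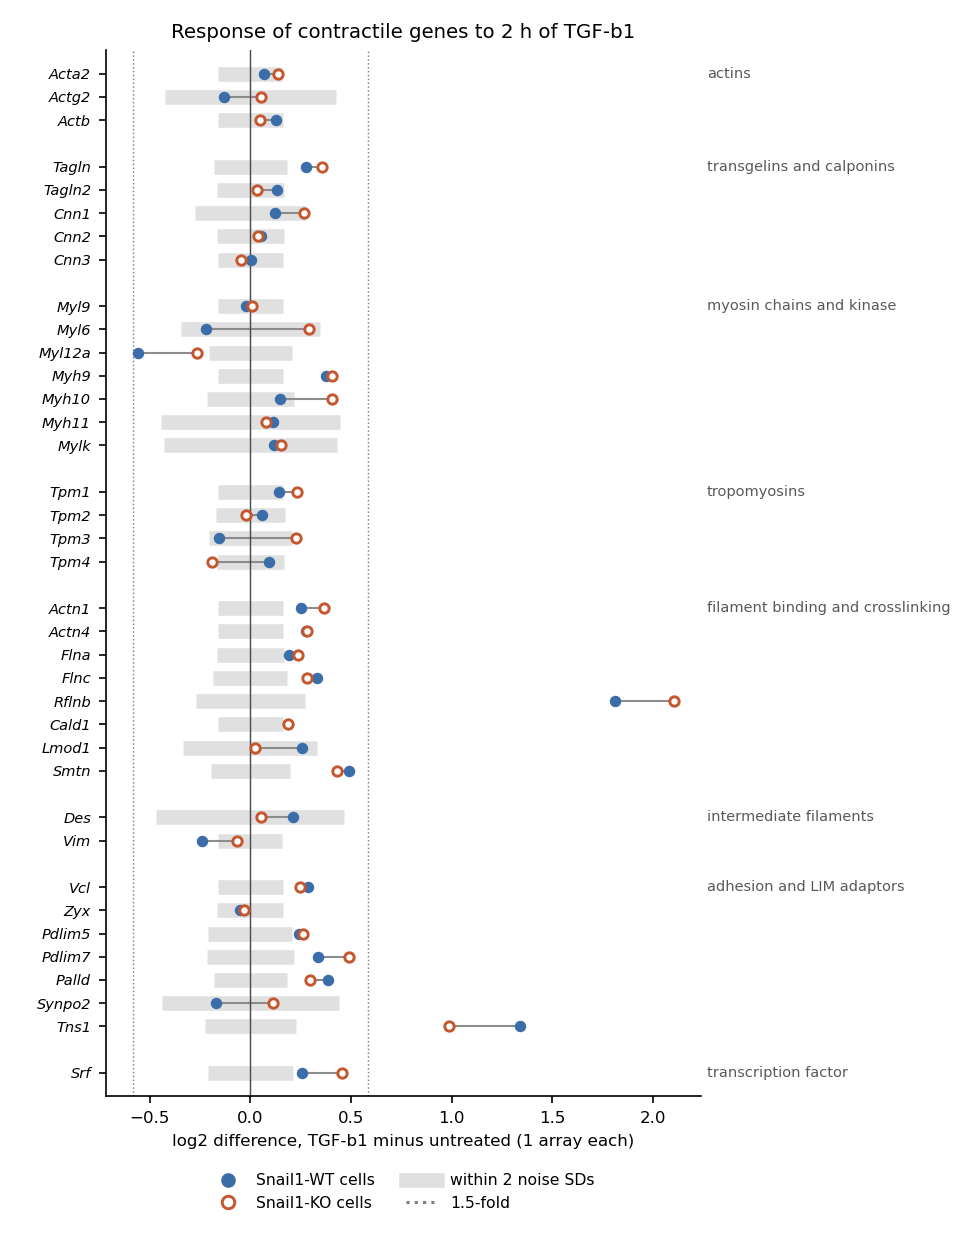
Log2 difference between the TGF-b1 and the untreated array for each of the 37 genes by role, in Snail1-WT (filled) and Snail1-KO cells (open), 1 array per condition. Grey bars span 2 noise SDs either side of 0 and dotted lines mark 1.5-fold; Rflnb and Tns1 lie far to the right, and the filament-binding genes lie to the right of 0 in both genotypes.

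Among filament-binding and crosslinking genes, all 8 had higher values in both responses, and 7 of 8 passed 2 noise SDs in each. Of all genes 29.5%, and of those in the middle level range 36.9%, had higher values in both responses. Smoothelin (Smtn), a stress fibre protein of contractile cells, was higher by 0.49 and 0.43. A second, dimmer probe set of Smtn gave -0.12 and 0.06. The crosslinkers alpha-actinin 1 (Actn1, 0.25 and 0.36) and alpha-actinin 4 (Actn4, 0.27 and 0.28), the filamins Flna (0.19 and 0.24) and Flnc (0.33 and 0.28) and caldesmon (Cald1, 0.19 and 0.19) differed by similar amounts in both genotypes. The exception was leiomodin 1 (Lmod1), a nucleator of smooth muscle filaments, at 0.25 and 0.02 with a noise SD of 0.17.

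Of the 7 adhesion and LIM adaptor genes, 5 were higher by 2 noise SDs in both responses. Beside Tns1 these were palladin (Palld, 0.39 and 0.29), the enigma gene Pdlim7 (0.33 and 0.49), vinculin (Vcl, 0.29 and 0.25), which couples talin to actin, and Pdlim5 (0.24 and 0.26). Zyxin (Zyx), a mechanosensitive adaptor of the same structures, differed by -0.05 and -0.03. Synpo2, a Z-disc protein measured near background, differed by -0.17 and 0.11.

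The SRF gene, itself a target of the pathway, measured 8.16 and 8.41 in Snail1-WT cells against 8.22 and 8.68 in Snail1-KO cells. Both treated arrays lay above both untreated ones, by 0.25 and 0.46 with a noise SD of 0.11. The 5 genes whose windows held an exact box did not differ alike. Srf and Vcl were higher by more than 2 noise SDs, whereas Myl9 differed by -0.02 and 0.01 and Cnn2 by 0.05 and 0.04. Myl6 differed by -0.22 and 0.29. Rflnb and Tns1, whose windows held no match, had the largest differences.

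The actins showed little difference after TGF-b1. Acta2, the actin of smooth muscle and the usual mark of a myofibroblast, measured 11.74 and 11.81 in Snail1-WT cells against 11.70 and 11.84 in Snail1-KO cells. All 4 arrays lay within 0.14 of each other, and both responses (0.07 and 0.14) were under 2 noise SDs. The cytoplasmic actin gene Actb measured 10.55 and 10.68, then 10.47 and 10.52. The gamma smooth muscle actin gene Actg2 measured 5.92 and 5.79, then 5.16 and 5.22. Actin isoforms are nearly identical in coding sequence, and how well these probe sets separate them was not tested.

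Of the transgelin and calponin family only transgelin (Tagln, also called SM22) was higher by 2 noise SDs, by 0.28 and 0.36. The smooth muscle calponin gene Cnn1 differed by 0.12 and 0.26 with a noise SD of 0.14. Tagln2, Cnn2 and Cnn3 lay within 2 noise SDs of 0 in both responses, between -0.04 and 0.13.

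Among the myosin genes, the non-muscle heavy chain genes were higher. Myh9 (myosin IIA) differed by 0.38 and 0.41, and Myh10 (myosin IIB) by 0.15 and 0.41, the first of these within 2 noise SDs. The smooth muscle heavy chain gene Myh11 measured 5.27, 5.38, 5.46 and 5.54 on the untreated and treated Snail1-WT and the untreated and treated Snail1-KO arrays. Its responses of 0.11 and 0.08 were under its noise SD of 0.22, as were those of the light chain kinase gene Mylk (0.12 and 0.15). Myl9 stayed between 8.87 and 8.89 on all 4 arrays. The regulatory light chain gene Myl12a was lower by 0.56 and 0.27, but its other, dimmer probe set was higher by 0.74 and 0.77. The direction of Myl12a is therefore not settled by these arrays.

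The 4 tropomyosin genes, whose products cover actin filaments and gate myosin, had medians of 0.08 and 0.10. Tpm1 differed by 0.14 and 0.23, the second beyond 2 noise SDs. Tpm2 differed by 0.06 and -0.02, Tpm3 by -0.16 and 0.23 and Tpm4 by 0.09 and -0.19. Of the intermediate filament genes, vimentin (Vim), the filament of mesenchymal cells, measured 11.29 and 11.05 in Snail1-WT against 11.51 and 11.45 in Snail1-KO cells. Vim was lower after TGF-b1 by 0.24 in Snail1-WT cells, beyond 2 noise SDs, and by 0.07 in Snail1-KO cells. A second Vim probe set gave -0.02 and -0.07. Desmin (Des), the muscle counterpart, measured between 4.33 and 4.55, below or near the lowest mean kept.

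Without Snail1 the group was not shifted as a whole. The smooth muscle genes Cnn1, Tagln and Actg2 had lower values, but others differed by less than 2 noise SDs in untreated cells. Lmod1 differed by 0.30, Mylk by 0.23, Myh11 by 0.19, Smtn by 0.11 and Acta2 by -0.04. The second, dimmer probe set of Smtn gave -0.31 without and -0.13 with TGF-b1. The median difference between Snail1-KO and Snail1-WT was -0.01 without and 0.01 with TGF-b1, against 0.00 and 0.00 over all genes. In untreated cells 3 of 37 genes (Cnn1, Actg2 and Tagln) were at least 1.5-fold lower, and none was 1.5-fold higher. The shares over all genes were 3.13% and 4.01%. With TGF-b1, 2 were lower (Cnn1 and Tagln, beside 3.0% of all genes) and 3 were higher (Rflnb, Myl6 and Synpo2, beside 5.14%).

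Cnn1 measured 7.72 and 7.84 in Snail1-WT cells against 6.82 and 7.09 in Snail1-KO cells. Both Snail1-KO arrays lay below both Snail1-WT arrays, by 0.90 (1.87-fold) without and 0.76 (1.69-fold) with TGF-b1. Tagln measured 8.77 and 9.05 against 8.08 and 8.44. Snail1-KO cells with TGF-b1 were thus still 0.34 below untreated Snail1-WT cells for Tagln, and 0.64 below for Cnn1, as the plot of levels shows. The Tagln difference was 0.70 (1.62-fold) and 0.62 (1.53-fold), with a noise SD of 0.09. With arrays centred on their medians the latter was 0.57, under 1.5-fold. Actg2 was lower by 0.75 (1.69-fold) and 0.57, the latter just under 1.5-fold, with a noise SD of 0.21. Acta2 differed by 0.03 with TGF-b1.

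**Figure D3:**
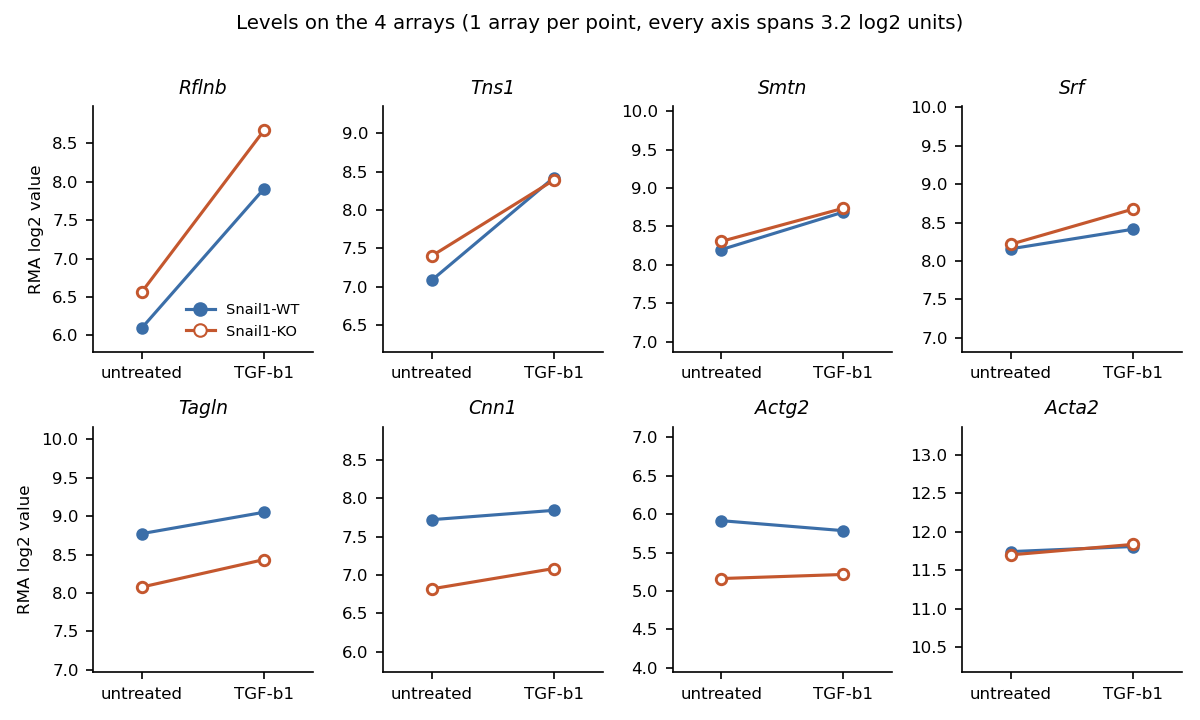
RMA log2 values of 8 genes on the 4 arrays, untreated and with TGF-b1, for Snail1-WT (filled) and Snail1-KO cells (open), 1 array per point and axes of equal span. Rflnb and Tns1 lie higher with TGF-b1 in both genotypes, Tagln, Cnn1 and Actg2 lie lower in Snail1-KO cells, and the 4 values of Acta2 lie within 0.14 of each other.

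Smaller genotype differences went both ways. By the limit of 2 noise SDs, 9 genes were lower and 5 higher in untreated Snail1-KO cells, beside 15.0% and 14.7% of all genes. With TGF-b1, 10 were lower and 8 higher, beside 14.0% and 17.5%. In both pairs, which share no array, 7 genes were lower (18.9%), against 8.71% of all genes and 16.5% of those in the middle level range. The 7 were Cnn1, Tagln, Actg2, Actn1, Actn4, Flnc and Zyx. Without and with TGF-b1, Tagln2 differed by -0.13 and -0.23, Tpm4 by 0.05 and -0.23 and Myl12a by -0.04 and 0.26. Their other probe sets gave -0.31 and -0.20 for Tagln2, -0.18 and -0.37 for Tpm4, and 0.47 and 0.50 for Myl12a. The 4 higher in both (10.8%) were Rflnb, Pdlim5, Vcl and Vim, against 10.5% of all genes and 17.3% in the middle level range. Beside genes in the middle level range, neither share stands far from the background. That range does not match all of the named genes in level. Actg2, Cnn1 and Rflnb lie below it, and Actn1, Vcl and Vim above it.

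**Figure D4:**
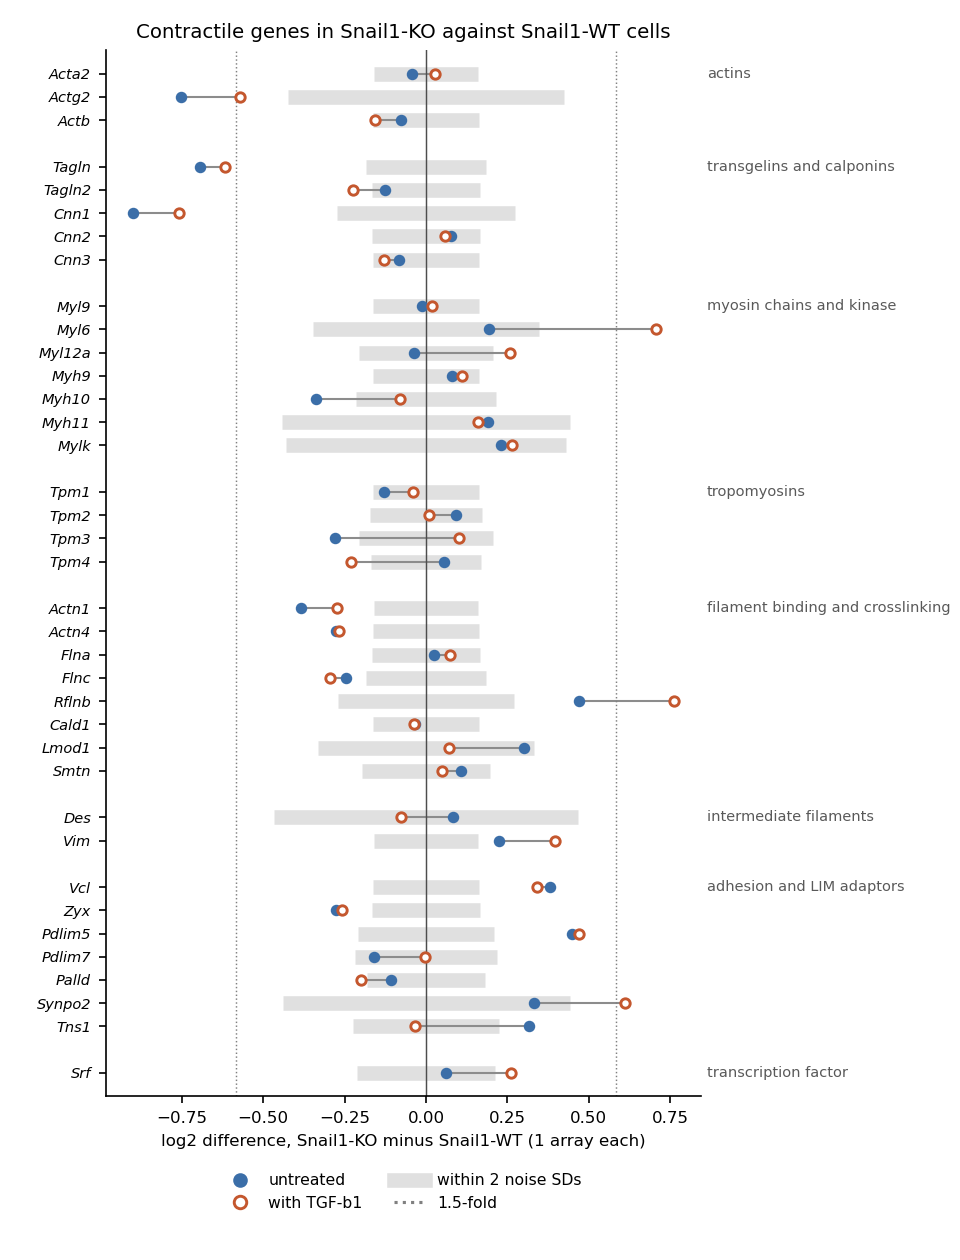
Log2 difference between Snail1-KO and Snail1-WT for each of the 37 genes by role, untreated (filled) and with TGF-b1 (open), 1 array per condition. Grey bars span 2 noise SDs either side of 0 and dotted lines mark 1.5-fold; Cnn1 and Tagln lie to the left of the 1.5-fold line in both pairs.

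Actn1 was lower in Snail1-KO cells by 0.38 and 0.27, Actn4 by 0.28 and 0.27, Flnc by 0.25 and 0.30 and Zyx by 0.28 and 0.26. For Actn1 and Actn4 the Snail1-KO array with TGF-b1 differed from the untreated Snail1-WT array by only -0.02 and 0.01. Vcl and Pdlim5 took the opposite course. Vcl was higher in Snail1-KO cells by 0.38 and 0.34 and Pdlim5 by 0.45 and 0.47, so that untreated Snail1-KO cells were already 0.10 and 0.21 above Snail1-WT cells with TGF-b1. Vim was higher by 0.23 and 0.40, with a noise SD of 0.08. Its second probe set, of nearly the same brightness, gave 0.18 and 0.14, the latter under 2 noise SDs.

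Myl6, an essential light chain gene, measured 5.84 and 5.62 in Snail1-WT cells against 6.03 and 6.32 in Snail1-KO cells, which separated the treated pair by 0.71 and the untreated pair by 0.19. Rflnb was higher in Snail1-KO cells by 0.47 and 0.76. Synpo2 measured 4.35 and 4.18 in Snail1-WT against 4.68 and 4.79 in Snail1-KO cells. It differed by 0.33 and 0.61, but both Snail1-WT values are dimmer than any mean that was kept (4.51), which leaves its size uncertain.

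As a group the genes showed little shift between the responses of the genotypes, while single genes differed. The response of Snail1-KO minus that of Snail1-WT cells had a median of 0.03 over the 37 genes and 0.02 over all genes. None of the 37 reached 1.5-fold in this difference, where 1.61% of all genes were higher and 1.97% lower. By 2 noise SDs of this difference, 3 genes were higher (Myl6, Tpm3 and Myl12a) and 2 lower (Tns1 and Tpm4), beside 4.16% and 2.51% of all genes. The other, dimmer probe sets of Tpm3 and Myl12a gave -0.09 and 0.03 instead of 0.38 and 0.29. That of Tpm4, of nearly the same brightness, gave -0.19 instead of -0.28. The noise SD was itself estimated from the difference of the responses over genes of like level. The extremes were Myl6 at 0.51 and Tns1 at -0.35, with noise SDs of this difference of 0.24 and 0.16. For Tagln it was 0.08, for Cnn1 0.14 and for Acta2 0.07, each under the noise SD of that difference.

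Regulators and further parts of the actin and SRF system were read from a list of 56 genes, of which 51 were measured and 47 were in the upper 60%. In Snail1-WT cells 2 were at least 1.5-fold higher and 2 lower after TGF-b1, beside 2.48% and 1.89% of all genes. In Snail1-KO cells 4 were higher and 1 lower, beside 3.31% and 1.83%. The fibronectin receptor subunit gene Itga5 was higher by 0.93 and 1.17, and the LIM protein gene Csrp2 by 1.28 and 0.83. Rnd3, an antagonist of RhoA and ROCK signalling, was lower by 0.73 and 0.94. The vinculin-binding adaptor gene Sorbs3 was lower by 0.73 and 0.37. The cofilin kinase gene Limk2 was higher by 0.28 and 0.81, and supervillin (Svil), a membrane-linked actin binder, by 0.06 and 0.59.

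The SRF coactivator genes themselves showed little after TGF-b1. Mrtfa differed by 0.14 and 0.04 and Mrtfb by 0.06 and -0.09, with noise SDs of 0.08 and 0.11. In Snail1-KO against Snail1-WT cells, Mrtfa differed by -0.14 without and -0.24 with TGF-b1. For Mrtfb these differences were -0.02 and -0.17. Myocd, the muscle-restricted coactivator gene, lay between 4.55 and 4.76, near the lowest mean kept. Rhoa differed by -0.15 and -0.22 after TGF-b1. Between genotypes, Myl12b, a close relative of Myl12a, was higher in Snail1-KO cells by 0.78 and 1.03, and Svil by 0.15 and 0.67. No gene of the list was 1.5-fold lower in either genotype pair, beside 3.13% of all genes untreated and 3.0% with TGF-b1. At least 1.5-fold higher were 1 gene untreated (Myl12b) and 2 with TGF-b1 (Myl12b and Svil), beside 4.01% and 5.14% of all genes. Over the 51 genes the median response was 0.03 in Snail1-WT against 0.08 in Snail1-KO cells.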

How the data were processed

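RNA of 4 samples was hybridised to 1 Affymetrix array each, after labelling with the WT PLUS kit, per the labels' protocols. Per the submitters' processing notes, the authors used RMA and R 3.1.1, and the deposited values are on the log2 scale. RMA equalises the distributions of the arrays, so a shift shared by most genes would be removed. The annotation and genome build behind the deposited log2 values were not given in the sources used here. As array data they carry no read depth; the number of arrays limits their precision.

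Of 41345 probe sets, 23521 had 1 gene symbol in the platform annotation, 1814 several and 16010 none listed here. All 37 members matched RefSeq (GRCm38.p6) by Entrez identifier with the same symbol. The brightest probe set stood for each gene, and the upper 60% of genes by mean formed the background. Differences between arrays were taken per gene, with called meaning at least 1.5-fold apart. The noise SD was 1 robust SD (from the median absolute deviation) of how far the TGF-b1 responses of both genotypes disagreed, scaled down by the root of 2. The calculation was run on simulated data with independent noise on each array and no true difference between the responses. Such data cannot show how far true differences, or spread shared by arrays, affect the estimate. The text names all members, and regulators past 1.5-fold in either response or either genotype pair beside Mrtfa, Mrtfb, Myocd and Rhoa. Members and lists were chosen with earlier results of these data known, and the limit of 2 noise SDs, the middle level range and the promoter search after the values were seen. Alternatives were a 2-fold threshold, filters at 60% and 40%, median centring, cyclic loess (limma 3.58.1, R 4.3.3), other uses of the probe sets and other numbers of neighbours. Other work used Python 3.11.15, numpy 2.4.6, pandas 2.3.3 and matplotlib 3.10.9.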

Additional observations from a re-analysis of the deposited data

Results flagged for a closer look

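In 3 genes TGF-b1 went with values that moved in opposite directions in the 2 genotypes, each by at least 1 noise SD. The share of all genes that meet this rule was not computed. Without a limit, 8 of the 37 genes (21.6%) had opposite signs, against 32.5% of all genes and 23.1% in the middle level range. In Snail1-WT cells all 3 moves were under 2 noise SDs, and in Snail1-KO cells that of Myl6 was too. The differences of the responses were not tested, since each condition had 1 array. Myl6 was lower by 0.22 in Snail1-WT against higher by 0.29 in Snail1-KO cells, a difference of the responses of 0.51. Tpm3 was lower by 0.16 and higher by 0.23, a difference of 0.38, but its dimmer probe set was higher in both genotypes, by 0.33 and 0.24. Tpm4 was higher by 0.09 and lower by 0.19, a difference of -0.28, and its other probe set, of nearly the same brightness, gave 0.17 and -0.03.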

How the results depend on the processing

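The alternatives kept most results. All 30 medians over the group under other filters, normalizations and probe sets moved by less than the median noise SD, with 0.11 to 0.17 for the Snail1-WT response and 0.21 to 0.24 for the Snail1-KO response. At a 2-fold threshold, the count stayed at 2 in Snail1-WT cells, was 1 in Snail1-KO cells (Rflnb) and 0 in both genotype pairs. At 2 noise SDs the counts in both directions were 17, 20, 14 and 18 for the responses of Snail1-WT and Snail1-KO cells and the untreated and treated genotype pairs, and 5 rather than 0 for the difference of the responses. With arrays centred on their medians, Myl12a passed 1.5-fold in Snail1-WT cells (2 higher, 1 lower), Tagln with TGF-b1 was at -0.57 (3 higher, 1 lower), and 12 rather than 15 genes passed 2 noise SDs in both responses. Centring shifted all genes by at most 0.05. With the second probe set, Myl12a was instead past 1.5-fold higher in both responses, so that 3 genes were higher in each. Of genes lower in both responses, the count went from 1 to 0 with the mean of all probe sets and with the second probe set, both of which change Myl12a. The count lower in both genotype pairs went from 7 to 8 with the mean and to 9 with the second probe set. The count higher in both genotype pairs went from 4 to 5 with the mean and stayed at 4 with the second. With 200 or 1000 neighbours the median noise SD was 0.087 and 0.096. Leaving out an array was not possible, since each group has 1.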
